A study of Mus musculus with 44 samples.

Results

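The genes described here are 8 genes of the urea cycle and of the nitrogen supply that feeds it, Cps1, Otc, Ass1, Asl, Nags, Slc25a15, Gls2 and Got1, measured by RNA sequencing of mouse liver. They were taken by name from a list, which was drawn up with earlier results of these data known. All 8 were found among the 35249 genes counted, and all 8 were among the 14862 genes that passed the filter on low counts. The study fed wild-type (WT), Ripk3-/- and Mlkl-/- mice 1 of 3 diets for 6 months from 2 months of age. Ripk3 and Mlkl encode a kinase and a membrane-rupturing effector of necroptosis, a form of programmed cell death. The diets were a normal chow (control) and 2 choline-deficient diets, one low in fat (CD-LFD) and one high in fat (CD-HFD). The 44 libraries fall into 9 groups. WT had 6 libraries on each diet. The Ripk3-/- groups had 6 on control, 3 on CD-LFD and 4 on CD-HFD, and the Mlkl-/- groups had 6, 4 and 3 in the same order. The RNA came from pieces of whole liver, and the labels give no sex, litter, promoter or clone. No group carries a further allele or agent, per the labels. The labels do not say in words that each library is a different mouse. If some are not, the p-values measure only the spread between these libraries.

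The urea cycle is the liver's route for turning toxic ammonia into urea. In the mitochondria of hepatocytes, carbamoyl phosphate synthetase 1 (Cps1) joins ammonia and bicarbonate, and it works only with its activator N-acetylglutamate, which Nags makes. Ornithine transcarbamylase (Otc) transfers the carbamoyl group to ornithine, which the carrier Slc25a15 brings into the mitochondrion in exchange for citrulline. In the cytosol argininosuccinate synthetase (Ass1) joins citrulline to aspartate, and argininosuccinate lyase (Asl) splits the product into arginine and fumarate. Gls2, the liver glutaminase, frees ammonia from glutamine, and Got1, the cytosolic aspartate aminotransferase, exchanges amino groups between glutamate and aspartate. The cycle is most active in periportal hepatocytes, and its genes are known to respond to dietary protein, glucagon and glucocorticoids.

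Total counts ranged from 2476268 to 88204703 per library. The deepest was WT CD-LFD replicate 3, and the other 43 libraries did not exceed 12471844. The 16 hepatocyte markers, albumin among them, summed to 75330.3 to 145985 CPM (relative counts, scaled by the trimmed mean of M-values, TMM) in the WT CD-LFD group, which held the lowest library of all 44, and none of the 16 was at 0 throughout a group. The Ripk3 transcript was between 0 and 0.26 CPM (here relative to the library total, as for Mlkl) in 12 of the 13 Ripk3-/- libraries. The library labelled Ripk3-/- control replicate 5 had 1.01 CPM, within the WT control range of 0.439 to 4.78. Mlkl reads were still counted in Mlkl-/- livers, at 1.24 to 6.02 CPM in 12 of 13. The library labelled Mlkl-/- CD-HFD replicate 1 had 14.4 CPM, below the 17.2 to 22.6 of WT on CD-HFD. WT control replicates 5 and 6 stood apart in the share of mitochondrial counts, 7.62% and 13.4% against 1.47% to 4.11% in the other 4 of that group. The ratio of the clock genes Arntl and Dbp, which peak at opposite times of day, split the libraries into 11 with a high and 33 with a low ratio. The high side held 4 of 6 WT control, 6 of 6 WT CD-LFD and 1 of 6 WT CD-HFD libraries and none from a knockout. Counts of the 8 genes are given without these libraries where such a fit could be made. Isozymes, pathway lists and markers were tested with all libraries only.

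Levels below are TMM-scaled CPM, and changes are log2 values. A gene is said to have risen or fallen where the adjusted p of edgeR's quasi-likelihood test (Benjamini-Hochberg over all 14862 genes) was under 0.05. Per kilobase of annotated exon (GENCODE M21), Ass1 was the most abundant of the 8 transcripts in WT livers on control diet, at 1363 ± 484 TMM-scaled CPM per kilobase (SD, n = 6). Cps1 followed with 605 ± 362. Asl, Gls2, Got1 and Otc lay between 116 and 166 on this per-length scale. Slc25a15 had 57.7 ± 15.7 and Nags, which makes only the activator, was lowest with 30.8 ± 3.57. Summed over the 8 genes and not corrected for length, the level in WT was 9186 ± 3450.1 CPM on control diet, 4231 ± 1412 on CD-LFD and 3764 ± 885 on CD-HFD. In Ripk3-/- livers the same sums were 10872 ± 1241 (n = 6), 6642 ± 2118 (n = 3) and 6156 ± 1564 (n = 4). In Mlkl-/- livers they were 11216 ± 1796 (n = 6), 7677 ± 664 (n = 4) and 6189.9 ± 612 (n = 3).

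**Figure D1:**
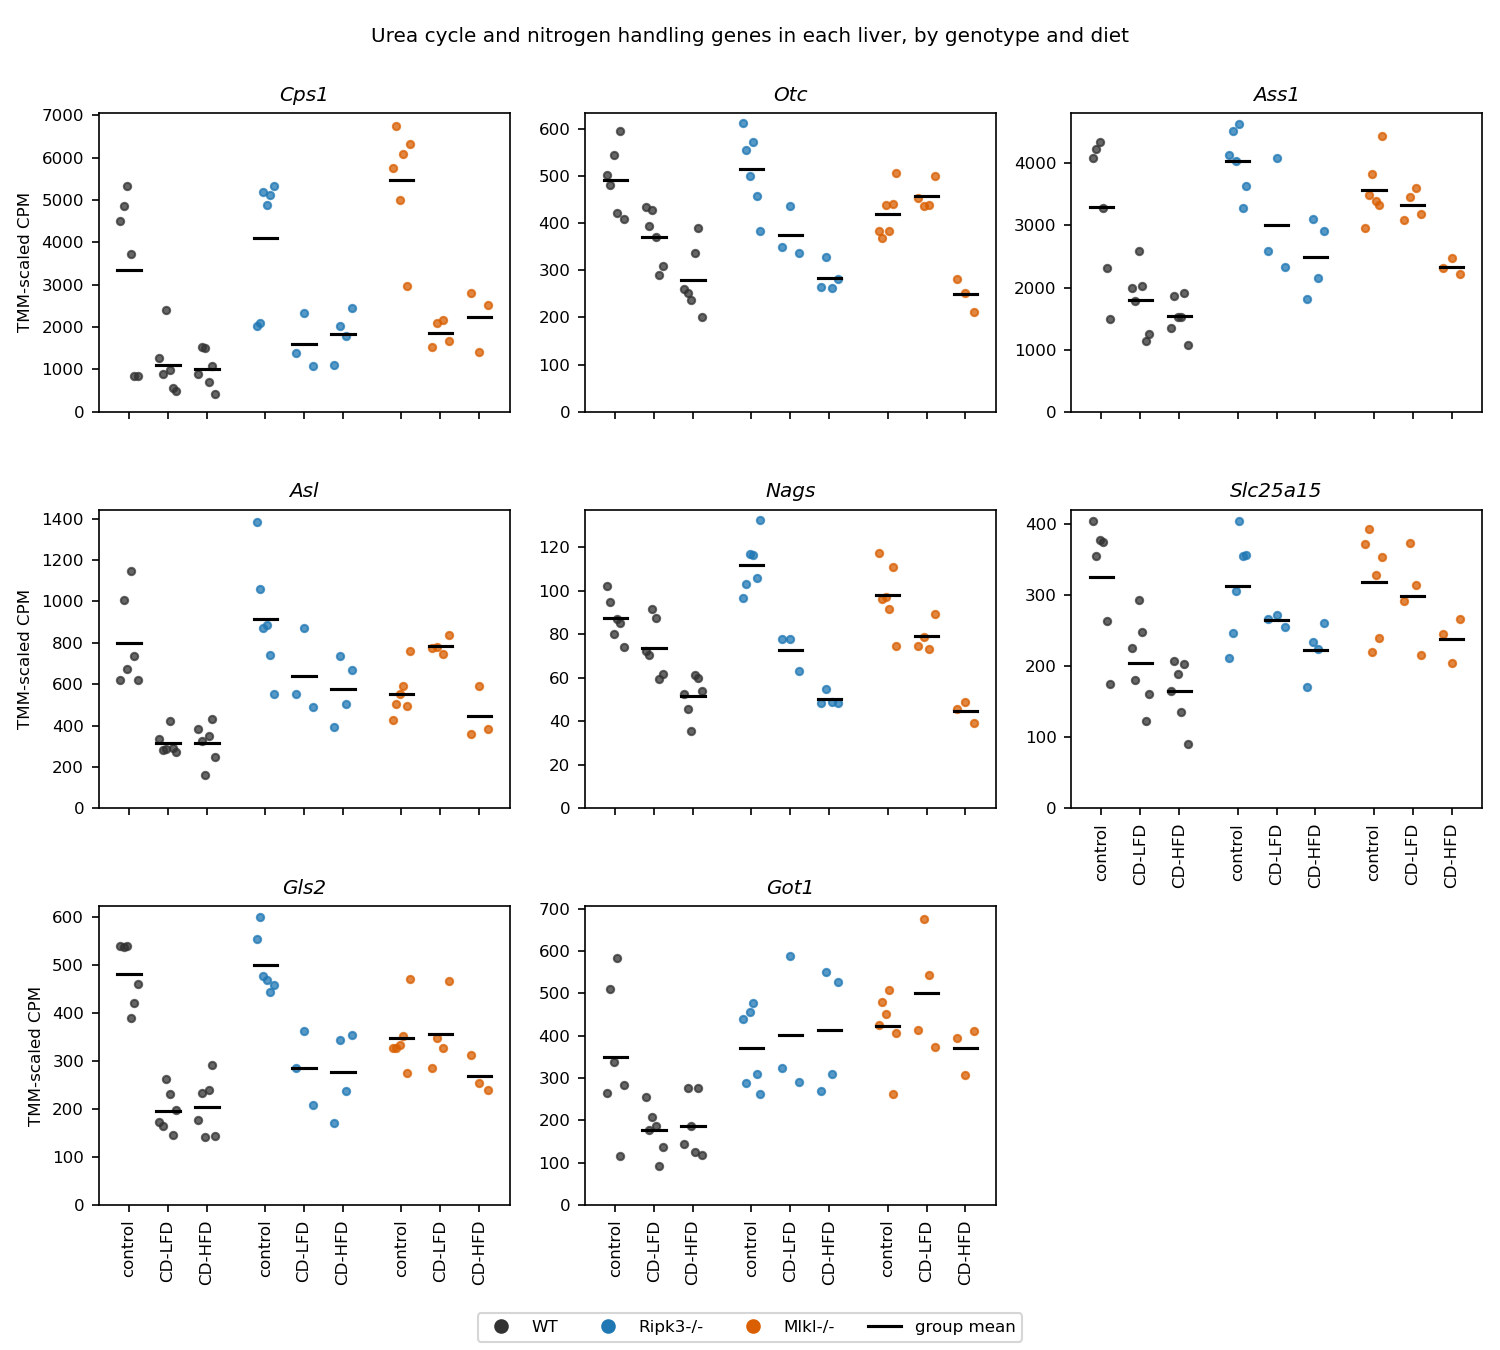
Level of each of the 8 genes in each of the 44 libraries, in TMM-scaled CPM on a linear axis from 0, by genotype (colour) and diet. Each point is 1 library and each bar the group mean. WT group means are lower on both choline-deficient diets than on control, while the points lie wholly below control on both for Asl and Gls2 only, and 2 WT control livers have Cps1 at 854 and 852.

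RefSeq (GRCm38.p6) gave promoters for 5 of the 8 genes. Those of Ass1, Got1, Otc and Nags are printed so that genes with the same and with other responses can be read side by side. With TMM scaling Ass1 and Otc fell on CD-HFD in all 3 genotypes, Nags was lower on CD-HFD than on CD-LFD in all 3, and Got1 fell in WT and did not pass within either knockout. Each line gives the 250 bases before the annotated start, 5′ to 3′ on the gene's strand, with any motif match in capitals.
Ass1 (chr2:31470020-31470269, plus strand): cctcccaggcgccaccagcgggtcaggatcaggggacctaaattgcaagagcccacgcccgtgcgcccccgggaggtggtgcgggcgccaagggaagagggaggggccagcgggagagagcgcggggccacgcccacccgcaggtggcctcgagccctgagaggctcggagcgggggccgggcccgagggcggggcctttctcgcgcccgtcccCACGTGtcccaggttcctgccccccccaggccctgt
Got1 (chr19:43524606-43524855, minus strand): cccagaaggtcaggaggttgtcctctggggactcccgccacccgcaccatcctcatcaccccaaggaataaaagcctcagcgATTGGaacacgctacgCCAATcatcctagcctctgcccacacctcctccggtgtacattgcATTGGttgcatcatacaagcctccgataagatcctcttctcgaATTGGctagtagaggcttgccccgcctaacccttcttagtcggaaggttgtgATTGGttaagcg
Otc (chrX:10252055-10252304, plus strand): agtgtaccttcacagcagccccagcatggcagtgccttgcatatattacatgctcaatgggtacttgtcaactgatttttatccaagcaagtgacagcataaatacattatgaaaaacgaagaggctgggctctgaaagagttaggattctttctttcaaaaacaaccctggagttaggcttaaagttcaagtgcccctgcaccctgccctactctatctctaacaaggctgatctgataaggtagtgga
Nags (chr11:102145263-102145512, plus strand): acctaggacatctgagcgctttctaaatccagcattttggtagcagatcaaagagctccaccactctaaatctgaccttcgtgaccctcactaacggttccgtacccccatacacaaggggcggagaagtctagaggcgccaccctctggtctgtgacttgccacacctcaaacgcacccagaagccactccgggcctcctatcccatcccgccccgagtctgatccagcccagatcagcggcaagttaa

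Motifs were searched on both strands: the E-box CACGTG, which clock and related factors bind, the CCAAT box CCAAT, the TATA box TATAAA, the cAMP response element as TGACGTCA and as its core TGACG, the C/EBP site as TTGCGCAA and as TTGCNNAA, the D-box TTATGTAA, the palindromic glucocorticoid receptor site and the HNF4 core CAAAGTCCA. The longer cAMP and C/EBP forms contain the shorter ones. The Ass1 promoter had 1 match, an E-box that starts 36 bases before the transcript start. The 5 matches in the Got1 promoter were all CCAAT boxes, which start 168, 152, 107, 64 and 12 bases before it. No match was found in the Otc and Nags windows. Slc25a15, whose 2 listed promoters are not printed, had 1 match, an E-box that starts 77 bases before the second of its starts. Of 32851 mouse promoters, 6.02% held the E-box, 33.8% the CCAAT box, 12.4% the TATA box, 17.8% and 1.55% the core and full cAMP element, 9.56% and 0.164% the short and long C/EBP form, 0.819% the D-box, 0.0396% the glucocorticoid site and 0.384% the HNF4 core. These matches describe letters in the window only.

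In WT livers all 8 genes fell on CD-HFD. Nags fell by 41.1%, the least of the 8, and Cps1 fell by 69.7%, the most. Among all genes tested in that comparison 24.1% were lower. The median change of the 8 was -1.04, against -0.07 for all genes. In 4 of the 8, Otc, Asl, Nags and Gls2, no CD-HFD liver reached the lowest control liver. Groups failed to overlap in 20.9% of all genes. All 8 kept their call in each of 12 fits that left out 1 WT library, and all 8 without WT control replicates 5 and 6, where 26.7% of all genes were lower. All 8 were also called with the clock ratio as a covariate and with the WT libraries limited to 1 clock side. Got1 lost its call with scaling by library total, and Otc, Nags and Got1 lost theirs with scaling by hepatocyte markers, with all 8 values still below 0. Of all genes 6.86% and 5.30% were lower under those scalings.

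At the entry of the cycle, Cps1 counted 4513, 4865, 5339 and 3733 CPM in WT control replicates 1 to 4 and 854 and 852 in replicates 5 and 6. On CD-HFD it was 889, 1520.1, 1509, 699, 1070.5 and 424. The 4 high control livers lay above every CD-HFD liver, and the 2 low ones lay among them (log2 change -1.72 ± 0.39 SE, adjusted p = 0.000313). Those same 2 control livers had the high mitochondrial shares given above. Their shares of counts in predicted genes (symbols of Gm and a number) were 0.557% and 0.757%, against 0.321% to 0.367% in control replicates 1 to 4. WT CD-HFD livers had 0.439% to 0.579%, and the part of both shares in the result was not tested. Without control replicates 5 and 6 the log2 change of Cps1 was -2.18 (adjusted p = 1.75e-06). The activator gene Nags went from 74.3 to 102 (median 86.3) CPM on control to 35.8 to 61.3 (median 53.1) on CD-HFD, with no overlap (log2 change -0.76 ± 0.13 SE, adjusted p = 3.21e-06). Otc went from 409 to 596 (median 492) to 200.1 to 391 (median 256), again with no overlap (log2 change -0.82 ± 0.14 SE, adjusted p = 7.00e-06). The ornithine carrier Slc25a15 was 174 to 404 (median 365) CPM on control and 90.9 to 207 (median 176) on CD-HFD. Its lowest control liver, replicate 6, lay within the CD-HFD range and the other 5 above it (log2 change -0.98 ± 0.21 SE, adjusted p = 0.000137).

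In the cytosolic steps, Ass1 was 1486 to 4349 (median 3685) CPM on control and 1072 to 1905 (median 1529) on CD-HFD. Again only control replicate 6 lay inside the CD-HFD range (log2 change -1.09 ± 0.20 SE, adjusted p = 2.42e-05). Asl, the next enzyme, went from 621 to 1147 (median 703) to 161 to 433 (median 337) with no overlap (log2 change -1.34 ± 0.21 SE, adjusted p = 1.75e-06). Of the nitrogen suppliers, Gls2 was 390.4 to 539.9 (median 500.0) on control and 141 to 291 (median 206) on CD-HFD, which do not overlap (log2 change -1.23 ± 0.18 SE, adjusted p = 4.51e-07). Got1 was 116 to 583 (median 309.6) and 117 to 275 (median 165), which overlap widely, since control replicate 1, at 264 CPM, lay within the CD-HFD range and replicate 5, at 116, below it (log2 change -0.90 ± 0.28 SE, adjusted p = 0.00731).

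On CD-LFD 7 of the 8 genes fell in WT, where 14.0% of all genes tested did. The median change of the 8 was -0.93, against -0.03 for all genes. The largest fall was that of Cps1 (log2 change -1.61 ± 0.39 SE, adjusted p = 0.00172), with CD-LFD livers at 1271, 896, 2398, 987, 569.7 and 485 CPM. CD-LFD replicates 5 and 6, the lowest, had the highest predicted-gene shares of that group, 0.656% and 0.670%. The part of that in the fall was not tested. Asl at 270.0 to 421 and Gls2 at 147 to 262 CPM lay wholly below their control ranges, and in 7.62% of all genes these groups did not overlap. Their log2 changes were -1.35 and -1.30, with adjusted p = 8.21e-06 and 1.09e-06. Ass1 (-0.88, adjusted p = 0.00126) and Got1 (-0.99, adjusted p = 0.00718) also fell. Falls in Slc25a15 (log2 change -0.66 ± 0.21 SE, adjusted p = 0.0138) and Otc (log2 change -0.41 ± 0.14 SE, adjusted p = 0.026) depended on single libraries. Slc25a15 lost its call without CD-LFD replicate 5 (adjusted p = 0.0508), and Otc lost it without control replicate 3 or 5 or without CD-LFD replicate 5 or 6 (0.0562 to 0.0811). Nags, at 59.7 to 91.5 (median 71.5) CPM, did not pass (log2 change -0.24 ± 0.13 SE, adjusted p = 0.147). Without WT control replicates 5 and 6 the count was 7 as well, where 21.2% of all genes fell, and the change of Cps1 was -2.07 (adjusted p = 1.38e-05). Among WT libraries with a high clock ratio only, 4 on control and 6 on CD-LFD, 5 of the 8 genes were called, without Slc25a15 and Got1. In that fit, whose controls include replicates 5 and 6, 7.71% of all genes fell. The count was also 5 with library total and with hepatocyte marker scaling, where Otc and Slc25a15 lost their calls and 4.96% and 4.53% of all genes fell. It was 4 where the 2 compared groups were fitted alone, with 6.09% of all genes lower. The WT control libraries serve both diet comparisons, so the changes on CD-LFD and CD-HFD share them.

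Between the choline-deficient diets 2 of the 8 genes differed in WT. Against CD-LFD, Nags fell on CD-HFD (log2 change -0.52 ± 0.13 SE, adjusted p = 0.00182) and Otc fell (log2 change -0.41 ± 0.14 SE, adjusted p = 0.0322), where 7.40% of all genes did. Otc lost this call in 8 of 12 fits without 1 library (adjusted p up to 0.105), namely CD-LFD replicate 1, 2, 3 or 4 or CD-HFD replicate 1, 2, 3 or 6. Otc also lost it in 6 of the 8 other settings run, and Nags kept its call in all 12 fits without 1 library and lost it with hepatocyte marker scaling. The other 6 genes lay between -0.32 (Slc25a15) and 0.09 (Got1). For Asl and Gls2, which fell on each diet against control, the 95% intervals of the difference between the diets were -0.42 to 0.43 and -0.30 to 0.43. WT CD-LFD and CD-HFD libraries differ in the clock ratio, with 6 of 6 and 1 of 6 on the high side.

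**Figure D2:**
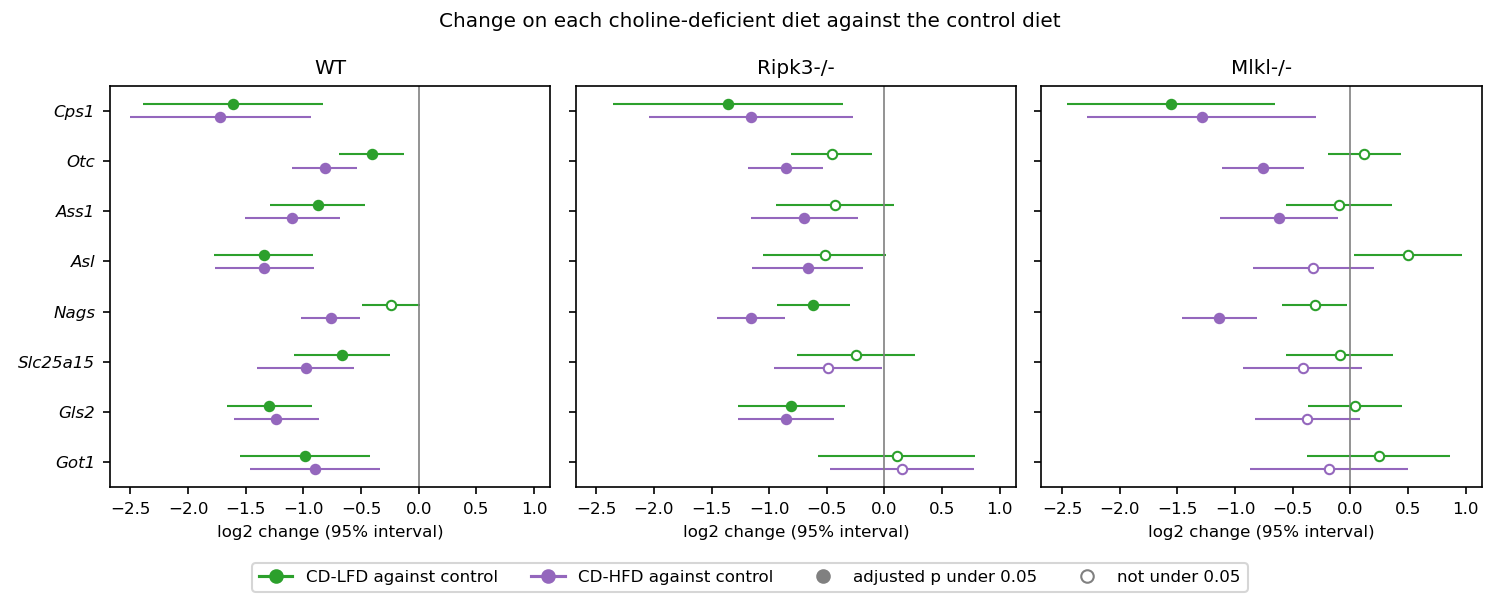
Log2 change of each gene on CD-LFD (green) and CD-HFD (purple) against control within WT, Ripk3-/- and Mlkl-/- livers, with 95% intervals. Filled points have an adjusted p under 0.05. On CD-HFD 8, 6 and 4 of the 8 genes are filled, and on CD-LFD 7, 3 and 1.

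Both diets also changed markers of other liver cells in WT. On CD-HFD 8 of 8 macrophage, 5 of 5 cholangiocyte, 6 of 7 stellate cell and 4 of 7 lymphocyte markers rose, while 5 of 5 endothelial markers fell. Of all genes 23.5% rose and 24.1% fell in that comparison. Summed macrophage markers were 118 to 162 CPM on control, 200.4 to 376 on CD-LFD and 863 to 2185 on CD-HFD. Of the hepatocyte markers 13 of 16 fell on CD-HFD and 1 rose, with a median of -0.80, and 4 of 16 fell on CD-LFD, with a median of -0.39. Their sum went from 88314 to 180600.0 on control to 75330.3 to 145985 on CD-LFD and 76927 to 114769 on CD-HFD. The part of these shifts in the changes of the 8 genes was not tested. In whole liver, fewer hepatocytes and less of a transcript per hepatocyte cannot be told apart. Of 5 periportal markers 2 rose and 2 fell on CD-HFD, and of 6 pericentral markers 0 rose and 3 fell.

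The choice of scaling set the size of these changes, as the plot of CD-HFD changes under 3 scalings shows. Scaling by library total moved the median change of all genes in WT on CD-HFD from -0.07 to 0.43, and scaling by the 16 hepatocyte markers moved it to 0.49. Under those scalings the 8 genes had a median change of -0.54 and -0.41, and 8 of 8 stayed below 0. Relative to the median of all genes, their median was -0.97 with TMM, -0.96 with library total and -0.90 with hepatocyte markers. A change of scaling moves all genes by nearly the same amount, so this similarity follows from the arithmetic and is no test.

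**Figure D3:**
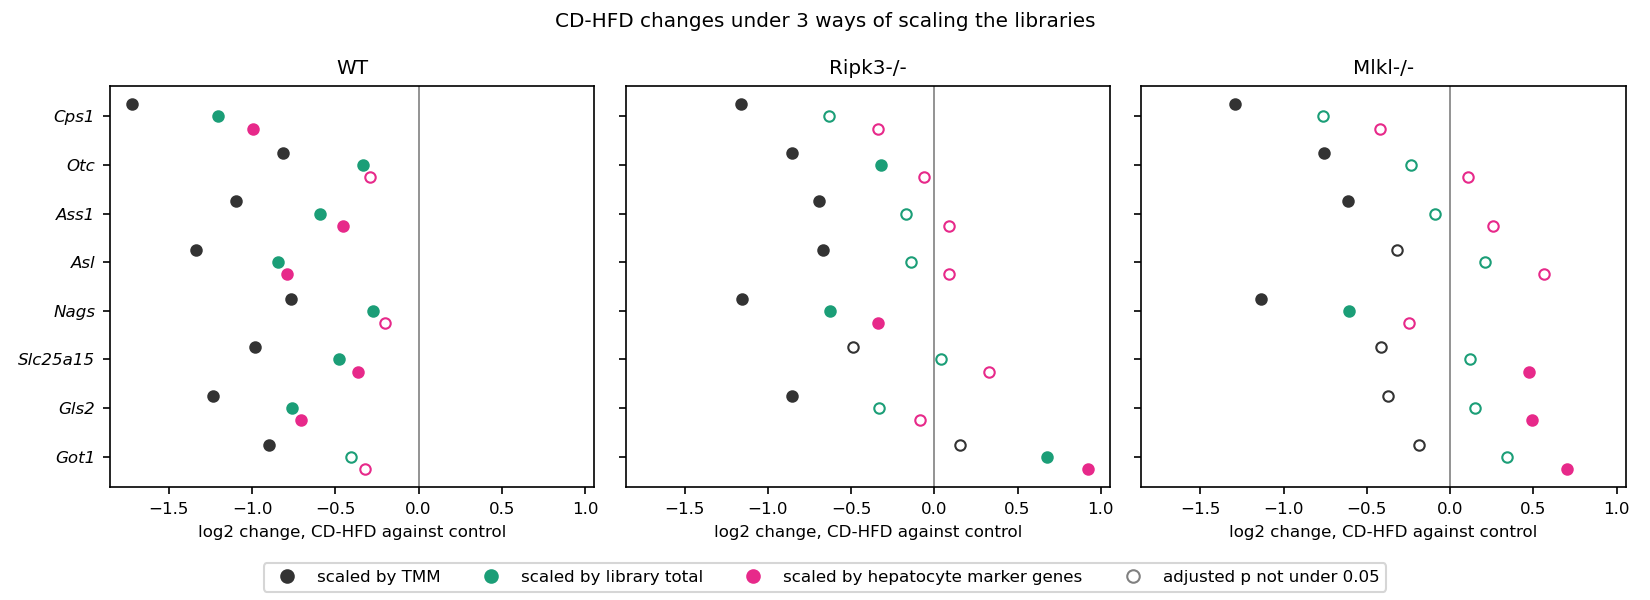
Log2 change of each gene on CD-HFD against control in each genotype under TMM (black), library total (green) and hepatocyte marker (pink) scaling. Open points have an adjusted p of 0.05 or more. In WT all points lie below 0, and in the knockouts several pink points lie above 0.

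In Ripk3-/- livers 6 of the 8 genes fell on CD-HFD with TMM scaling, where 21.7% of all genes did, but with hepatocyte marker scaling Ass1 and Asl turned to small positive values, Nags alone was called lower and Got1 was called higher. Of all genes 2.48% were lower and 60.2% higher with that scaling. With library total scaling Otc and Nags were called lower and Got1 higher, where 4.96% of all genes were lower and 46.2% higher. The median change of the 8 was -0.78, against -0.05 for all genes. Nags went from 96.6 to 133 (median 111) to 48.3, 55.0, 48.9 and 48.4 CPM, with the groups far apart (log2 change -1.16 ± 0.14 SE, adjusted p = 1.62e-08). Otc went from 384 to 613 (median 528) to 266, 327, 262 and 281 with no overlap (log2 change -0.86 ± 0.16 SE, adjusted p = 2.86e-05). Gls2 (-0.86, adjusted p = 0.000771) and Ass1 (-0.70, 0.0124) fell with no overlap. Non-overlap between these groups was found in 36.4% of all genes. Cps1 was 2022 and 2094 CPM in Ripk3-/- control replicates 1 and 2 and 4886 to 5339 in the other 4, against 1101, 2029.9, 1784 and 2445 on CD-HFD (log2 change -1.16 ± 0.44 SE, adjusted p = 0.028). Replicates 1 and 2 also had the highest mitochondrial shares of that group, 7.03% and 5.61%, and the part of that in the result was not tested. The share of counts in predicted genes (symbols of Gm and a number) was 0.443% to 0.546% on CD-HFD, above every Ripk3-/- control liver (0.293% to 0.421%), and its part in the changes of the 8 genes was not tested either. Cps1 lost its call without control replicate 3 or 6 or CD-HFD replicate 1 or 3 (adjusted p up to 0.103), Asl (log2 change -0.67 ± 0.24 SE, adjusted p = 0.0205) without control replicate 1 or CD-HFD replicate 1 or 3 (up to 0.104), and Ass1 without CD-HFD replicate 1 (0.0667). Slc25a15 (-0.49, adjusted p = 0.0795) and Got1 (0.15, 0.717) did not pass. Without the library labelled Ripk3-/- control replicate 5, 6 genes were called. Without CD-HFD replicate 1 the count was 3, and without CD-HFD replicate 3 it was 4. Over all genes 5853 were called without CD-HFD replicate 1, against 6884 with all libraries.

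On CD-LFD 3 of the 8 genes fell in Ripk3-/- livers, Cps1, Gls2 and Nags, where 10.1% of all genes did. Nags was 78.1, 78.0 and 63.1 CPM in the 3 CD-LFD livers, below all 6 controls (log2 change -0.62 ± 0.16 SE, adjusted p = 0.00379). Gls2 was 285, 363 and 209, also below all controls (log2 change -0.81 ± 0.23 SE, adjusted p = 0.0091). Non-overlap was found in 20.7% of all genes here. Cps1 (log2 change -1.36 ± 0.49 SE, adjusted p = 0.0399) overlapped its controls. Without CD-LFD replicate 3 none of the 8 was called (the 3 had adjusted p between 0.0637 and 0.214). Over all genes 1360 were called in that fit, against 3576 with all libraries, and the most in the 9 fits without 1 library was 4108. Cps1 also lost its call without control replicate 3, 4, 5 or 6 or CD-LFD replicate 1. The count was 2 without control replicate 3 or 4 or CD-LFD replicate 1, and 5 without CD-LFD replicate 2, where Otc and Asl were called lower too. Without the library labelled Ripk3-/- control replicate 5 the count was 3, with Otc in place of Cps1. With hepatocyte marker scaling none of the 3 was called, and with library total 1 was, where 1.74% and 3.45% of all genes were lower. Between the choline-deficient diets Nags was the only gene of the 8 that fell on CD-HFD (log2 change -0.54 ± 0.17 SE, adjusted p = 0.0311, 3.08% of all genes lower), and it lost this call in 5 of 7 fits without 1 library, namely CD-LFD replicate 1 or 2 or CD-HFD replicate 1, 3 or 5 (adjusted p up to 0.148).

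In Mlkl-/- livers 4 of the 8 genes, Cps1, Otc, Ass1 and Nags, fell on CD-HFD with TMM scaling, where 20.3% of all genes did, but Otc and Ass1 turned positive with hepatocyte marker scaling and none of the 4 was then called lower. With that scaling Slc25a15, Gls2 and Got1 were called higher, at 0.47, 0.49 and 0.70, a lower share than the 60.1% of all genes that were higher, while 2.36% were lower. The 4 genes showed no overlap between the 3 CD-HFD and 6 control livers, which held for 39.4% of all genes. Nags was 45.6, 48.9 and 39.3 CPM against 74.6 to 117 (median 96.8) on control (log2 change -1.14 ± 0.16 SE, adjusted p = 2.46e-07). Otc was 282, 252 and 212 against 369.7 to 506 (median 411) (log2 change -0.76 ± 0.18 SE, adjusted p = 0.000552). Cps1 was 2797, 1404 and 2525 against 2959 to 6741 (median 5923) (log2 change -1.29 ± 0.49 SE, adjusted p = 0.0294). Nags and Otc kept their calls in all 9 fits without 1 library. Ass1 (adjusted p = 0.0449) lost its call in 7 of 9 and Cps1 in 2. The count was 2 without CD-HFD replicate 2 or 4 and 3 without the library labelled Mlkl-/- CD-HFD replicate 1. The count was 3 with RLE scaling and 1 with library total scaling, where 17.6% and 4.89% of all genes were lower. Over all genes 5262 were called without CD-HFD replicate 2, against 6718 with all libraries. The share of counts in predicted genes was 0.380% to 0.517% in the CD-HFD livers and 0.309% to 0.367% on control, with no overlap, and its part in the result was not tested. Relative to the median of all genes, all 8 lay lower, with a median of -0.47 under TMM and library total and -0.48 under RLE and hepatocyte marker scaling. The likeness of the 4 scalings here follows from the arithmetic, since scaling moves all genes by nearly the same amount.

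On CD-LFD Mlkl-/- livers had 1 call among the 8. Cps1 fell, from 2959 to 6741 (median 5923) CPM on control to 1524, 2097, 2158 and 1681, with no overlap (log2 change -1.56 ± 0.45 SE, adjusted p = 0.00614), where 18.3% of all genes fell and 25.9% did not overlap. This fall was called under RLE, library total and hepatocyte marker scaling and in all 10 fits without 1 library, with log2 changes of -1.68 to -1.47. The mitochondrial share of counts was 4.25% to 7.63% in these CD-LFD livers and 2.77% to 4.75% on control. The share in predicted genes was 0.385% to 0.461% against 0.309% to 0.367%, with no overlap, and the part of both shares in the fall was not tested. For the steps after Cps1 the values overlapped with those on control. Otc was 369.7 to 506 (median 411) on control and 453, 438, 439 and 499 on CD-LFD (95% interval of the log2 change -0.19 to 0.44). Ass1 was 2965 to 4446 (median 3439) and 3088, 3463, 3604 and 3186 (-0.56 to 0.36). Gls2 was 275 to 471 (median 331) and 286, 348, 326 and 467 (-0.37 to 0.44). Asl was higher in value, at 772, 780.4, 748 and 837 against 427 to 760.2 (median 527), and did not pass (log2 change 0.50 ± 0.23 SE, adjusted p = 0.0842). It was called higher with library total scaling (0.64), with hepatocyte marker scaling (0.89), where Otc also was, and without control replicate 6 (0.61, adjusted p = 0.0408), where Nags was called lower. Of all genes 25.1% were higher with library total and 33.4% with hepatocyte marker scaling. Against CD-LFD, CD-HFD lowered Nags (log2 change -0.83 ± 0.17 SE, adjusted p = 0.000379), Otc (log2 change -0.88 ± 0.19 SE, adjusted p = 0.000669) and Asl (log2 change -0.82 ± 0.28 SE, adjusted p = 0.0303) in Mlkl-/- livers, where 9.14% of all genes fell. None of the 3 was called with hepatocyte marker scaling, where 1.30% of all genes were lower, and Asl lost its call without CD-LFD replicate 4 or CD-HFD replicate 1 or 4 (adjusted p up to 0.144).

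Cell type markers moved in the knockouts as well. On CD-HFD 8 of 8 macrophage markers rose in Ripk3-/- and 8 of 8 in Mlkl-/- livers, and 13 of 16 and 11 of 16 hepatocyte markers fell. Of all genes 24.6% and 24.9% rose and 21.7% and 20.3% fell. On CD-LFD 7 of 16 hepatocyte markers fell in Ripk3-/- and 5 of 16 in Mlkl-/- livers, and 5 of 5 and 0 of 5 cholangiocyte markers rose. There 14.0% and 19.7% of all genes rose and 10.1% and 18.3% fell. Summed hepatocyte markers were 149934 to 157478 CPM in Mlkl-/- livers on CD-LFD and 75330.3 to 145985 in WT, and summed macrophage markers 205 to 443 and 200.4 to 376. Summed pericentral markers were 8222 to 9954 in Mlkl-/- and 3243 to 7205 in WT livers on CD-LFD, with no overlap. They were 6448 to 11769 in Ripk3-/- livers on CD-LFD and 4791 to 7756 in Mlkl-/- livers on control. Summed periportal markers overlapped on CD-LFD, at 2795 to 3139 in Mlkl-/- and 2014 to 3532 in WT. The part of these values in the differences between genotypes and diets was not tested.

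On control diet 1 of the 8 genes was called in a comparison of genotypes. None was called between Ripk3-/- and WT by edgeR or DESeq2, where 4.47% of all genes were called by edgeR and 6.31% by DESeq2. Of the 8, 1, Nags (0.35, 95% interval 0.10 to 0.61), had an unadjusted p under 0.05, with no share of all genes counted at that threshold. None was called without WT control replicates 5 and 6, where Cps1 went from 0.29 to -0.17, or without the library labelled Ripk3-/- control replicate 5. Of all genes 2.38% were called in the former fit. Hepatocyte marker scaling gave 2 calls, Otc and Slc25a15 lower, and turned Otc from 0.06 to -0.41, where 32.9% of all genes were lower. Between Mlkl-/- and WT, Gls2 was lower, at 275 to 471 (median 331) CPM against 390.4 to 539.9 (median 500.0) (log2 difference -0.47 ± 0.18 SE, adjusted p = 0.0478), where 14.1% of all genes were. It lost this call in 9 of 12 fits without 1 library, all but WT control replicate 4 or 5 and Mlkl-/- control replicate 6 (adjusted p up to 0.105). Asl was lower in value too (log2 difference -0.53 ± 0.21 SE, adjusted p = 0.057), and it was called without WT control replicate 1, 3 or 6 or Mlkl-/- control replicate 6. Without WT control replicates 5 and 6, Asl was called (-0.63) and Gls2 was not (adjusted p = 0.0576), where 8.91% of all genes were lower. With hepatocyte marker scaling 4 of the 8 were called lower, where 38.3% of all genes were. Cps1 was 2022 to 5339 (median 4999.8) CPM in Ripk3-/-, 2959 to 6741 (median 5923) in Mlkl-/- and 852 to 5339 (median 4123) in WT, with 95% intervals of -0.47 to 1.05 and -0.06 to 1.47 for the log2 differences from WT.

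On CD-LFD 4 genes were higher in Mlkl-/- than in WT livers, where 1.64% of all genes were, and the values of 5 did not overlap, as for 6.98% of all genes. Asl was 772, 780.4, 748 and 837 CPM in Mlkl-/- and 270.0 to 421 (median 289.6) in WT, so the lowest Mlkl-/- liver lay far above the highest WT liver (log2 difference 1.32 ± 0.23 SE, adjusted p = 0.000469). Got1 was 412, 676, 544 and 373 against 92.0 to 255 (median 181) (log2 difference 1.51 ± 0.31 SE, adjusted p = 0.00247). Ass1 (0.89, adjusted p = 0.0182) and Gls2 (0.86, 0.0101) were also higher without overlap, and so in value was Otc (0.30, 0.343), which did not pass and came to -0.024 with hepatocyte marker scaling. Cps1 (0.76, 0.383), Slc25a15 (0.54, 0.221) and Nags (0.10, 0.807) did not pass. Ass1 lost its call without WT CD-LFD replicate 5 or 6 or Mlkl-/- CD-LFD replicate 2 or 3 (adjusted p up to 0.0628), and Gls2 without Mlkl-/- CD-LFD replicate 4 (0.0832) or with hepatocyte marker scaling.

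In the same diet Ripk3-/- livers had Asl at 554, 871 and 490.1 CPM, above all WT livers (log2 difference 1.02 ± 0.25 SE, adjusted p = 0.0273), the only 1 of the 8 called, where 0.794% of all genes were higher. Got1 at 324, 589 and 289 (log2 difference 1.19 ± 0.33 SE, adjusted p = 0.0625) did not overlap WT either and did not pass, and 7.89% of all genes did not overlap. DESeq2 called both. Asl lost its call with library total and with hepatocyte marker scaling. It also lost it without WT CD-LFD replicate 2, 3, 5 or 6 or Ripk3-/- CD-LFD replicate 1 or 2 (adjusted p up to 0.383). All 6 WT libraries on CD-LFD have a high clock ratio and all 7 knockout libraries a low one, so on this diet genotype and clock side cannot be told apart. Of 5 clock genes 3 were higher and 1 lower in Mlkl-/- than in WT livers on it, against 1.64% and 0.929% of all genes. The 5 include Arntl and Dbp, whose ratio defined the clock sides, so this count is no separate sign of the split. With the clock ratio as a covariate none of the 8 genes was called in either comparison, where 0.121% (Mlkl-/-) and 0.074% (Ripk3-/-) of all genes were. The values were then 0.77 for Asl and 0.92 for Got1 in Mlkl-/- against WT.

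On CD-HFD no gene of the 8 was called against WT by edgeR in either knockout, where 0.377% of all genes were called in Ripk3-/- and 0% in Mlkl-/- livers. Unadjusted p was under 0.05 for 5 of the 8 in Ripk3-/- and 4 in Mlkl-/-, with no share of all genes counted at that threshold. DESeq2 called 2 and 0, against 0.848% and 0.0135% of all genes. DESeq2's calls were Asl (edgeR value 0.86, adjusted p = 0.085) and Got1 (1.14, 0.0809). In Mlkl-/- livers the largest values were those of Cps1 (1.14, 0.587) and Got1 (0.99, 0.568). Leaving out the library labelled Mlkl-/- CD-HFD replicate 1 gave no call in Mlkl-/- livers either. Got1 was 268, 549, 308 and 526 CPM in Ripk3-/-, 395, 307 and 411 in Mlkl-/- and 143, 275, 186, 126, 275 and 117 in WT livers. Otc and Nags were close to WT in both, with 95% intervals of -0.29 to 0.34 and -0.32 to 0.24 in Ripk3-/- and -0.52 to 0.18 and -0.52 to 0.11 in Mlkl-/-.

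**Figure D4:**
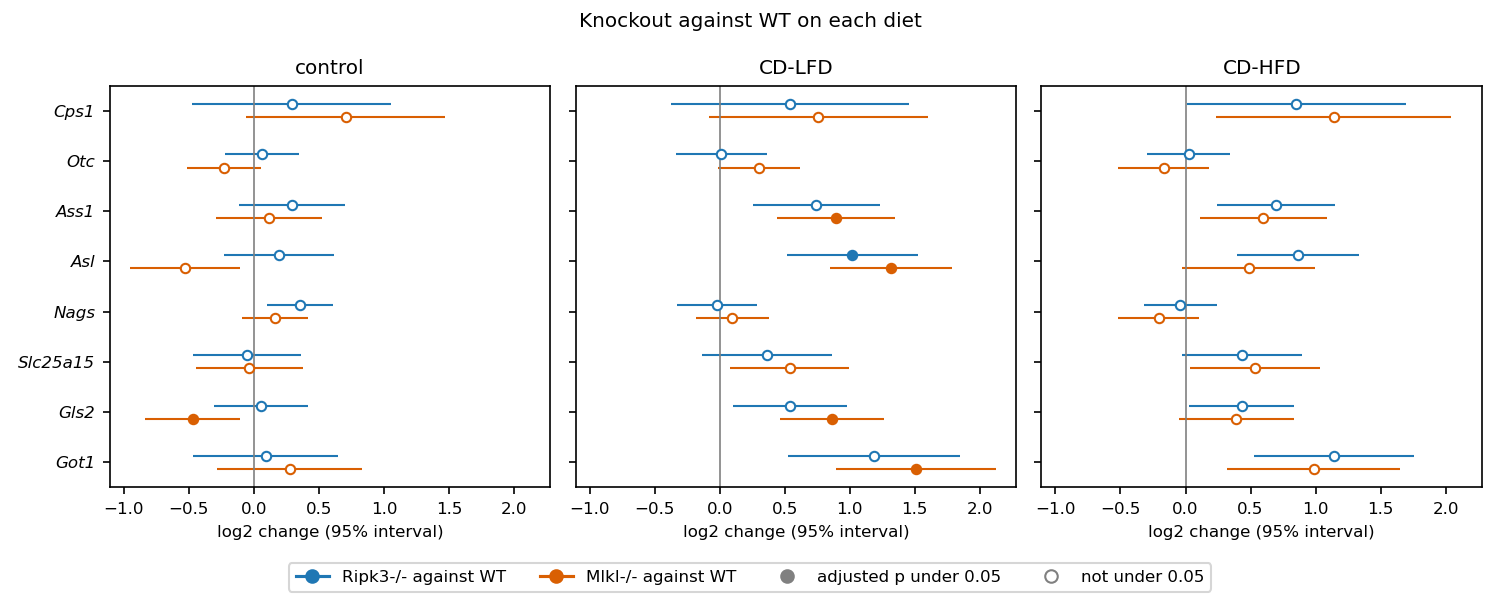
Log2 difference of each gene between Ripk3-/- (blue) or Mlkl-/- (orange) and WT livers on each diet, with 95% intervals. Filled points have an adjusted p under 0.05. Filled points above 0 appear on CD-LFD only, 4 for Mlkl-/- and 1 for Ripk3-/-, and 1 filled point below 0 is Gls2 in Mlkl-/- on control.

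Whether the diet change itself differed from that in WT was tested as an interaction. For Mlkl-/- and CD-LFD 2 of the 8 genes passed, Asl (log2 difference 1.85 ± 0.31 SE, adjusted p = 0.000311) and Gls2 (log2 difference 1.33 ± 0.27 SE, adjusted p = 0.00166), both above 0, where 4.37% of all genes were. In WT on this diet Asl fell by 60.7% and Gls2 fell by 59.3%, and in Mlkl-/- livers their log2 changes were 0.50 and 0.04. Both kept their calls in all 22 fits without 1 library, under each scaling, with DESeq2, with the clock ratio as a covariate and, added after seeing the data, with the WT libraries limited to the high clock side (Asl 1.54, Gls2 1.33). Got1 missed the threshold (log2 difference 1.24 ± 0.41 SE, adjusted p = 0.0527) and passed without WT control replicate 1, 5 or 6, WT CD-LFD replicate 1 or Mlkl-/- CD-LFD replicate 4, or with RLE or hepatocyte marker scaling or DESeq2. Ass1 (log2 difference 0.78 ± 0.30 SE, adjusted p = 0.1) passed without WT control replicate 6 (0.93, adjusted p = 0.0258), and 4 of the 8 passed then. The count was also 4 without WT control replicates 5 and 6, where 5.23% of all genes were called above 0. It was 4 with hepatocyte marker scaling, which added Ass1 and Got1 and under which 3.21% of all genes were called above 0. For Cps1 the difference was 0.05 with a 95% interval of -1.09 to 1.20, and for Nags -0.07 with -0.45 to 0.31. Mlkl-/- control livers had Asl and Gls2 at lower values than WT control livers, which enters this difference.

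The other 3 interactions gave no call among the 8 genes by edgeR, where 4.12% of all genes were called for Mlkl-/- and CD-HFD, 0.478% for Ripk3-/- and CD-HFD and 0.0269% for Ripk3-/- and CD-LFD. An unadjusted p under 0.05 was found for 2, 3 and 2 of the 8 in the same order, with no share of all genes counted at that threshold. DESeq2 called 2 for Mlkl-/- and CD-HFD and 0 in the other 2, against 7.06%, 1.42% and 0.261% of all genes in that order. Without WT control replicates 5 and 6 Asl passed for Mlkl-/- and CD-HFD (1.12, adjusted p = 0.039), where 6.63% of all genes did, and none for Ripk3-/-. None passed without the library labelled Mlkl-/- CD-HFD replicate 1 or that labelled Ripk3-/- control replicate 5. Asl (log2 difference 1.02 ± 0.33 SE, adjusted p = 0.0672) and Gls2 (log2 difference 0.86 ± 0.28 SE, adjusted p = 0.0712) came closest for Mlkl-/- and CD-HFD, and both passed with library total scaling, DESeq2, without WT CD-HFD replicate 5 or without Mlkl-/- control replicate 6. With hepatocyte marker scaling these and Ass1 and Slc25a15 passed, all above 0, where 2.85% of all genes were called above 0, against 1.61% with library total. For Ripk3-/- the values of Asl were 0.67 on CD-HFD and 0.83 on CD-LFD, and those of Got1 1.05 and 1.09. All these interactions share the WT control libraries, and those on 1 diet share the WT livers on it.

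**Figure D5:**
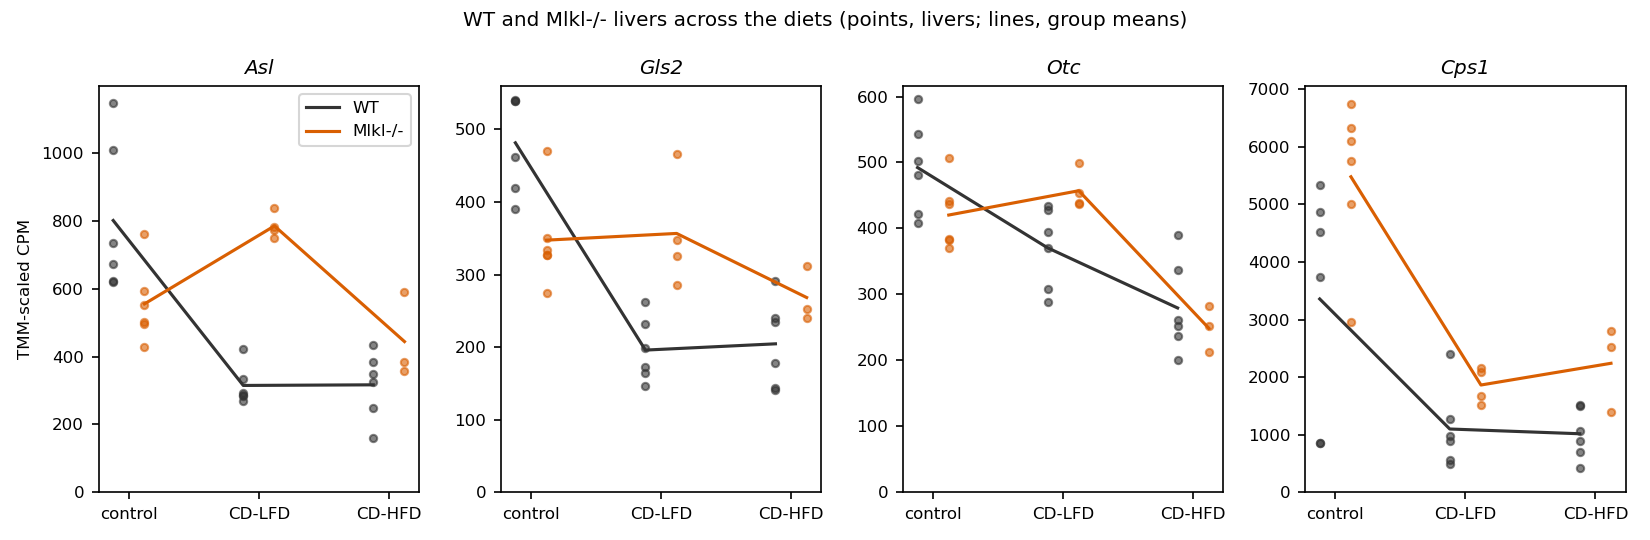
Levels in TMM-scaled CPM, on linear axes from 0, of Asl, Gls2, Otc and Cps1 in WT (black) and Mlkl-/- (orange) livers on the 3 diets, with a point per library and lines through group means. For Asl and Gls2 the lines part on CD-LFD, while for Cps1 both go down from control to CD-LFD.

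Ordered by group mean, 7 of the 8 genes had their highest mean in a control diet group and all but Otc and Nags their lowest in a WT group on a choline-deficient diet. The exception at the top was Got1, with 501 ± 138 CPM in Mlkl-/- livers on CD-LFD and 176 ± 56.7 in WT on the same diet. The highest group mean was 1.97 (Slc25a15) to 5.38 times (Cps1) the lowest. Neighbours in these orders overlapped in their livers' values in every case but Nags between WT on CD-HFD, at 51.5 ± 9.57, and Ripk3-/- on CD-LFD, at 73.1 ± 8.64.

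Among isozymes and counterparts of the 8 genes, Glul, glutamine synthetase of pericentral hepatocytes, which captures ammonia that the cycle leaves, rose on CD-LFD in WT, from 519 to 1227 (median 922) to 1581 to 2243 (median 1865) CPM (log2 change 1.04 ± 0.17 SE, adjusted p = 1.57e-05). It rose on CD-LFD in Ripk3-/- (0.99, adjusted p = 0.000414) and Mlkl-/- livers (0.70, 0.00381) as well. On CD-HFD its level was 677 to 1048 (median 901) in WT, below every CD-LFD liver (log2 change -1.11 ± 0.17 SE, adjusted p = 5.49e-06). In Mlkl-/- livers it fell on CD-HFD against control with TMM (-0.52, 0.0428) and not with the other 3 scalings. On the same diet it did not pass with TMM in WT (-0.07, adjusted p = 0.745) or Ripk3-/- livers (0.11, 0.659), but it was called higher with library total (0.43 and 0.66) and with hepatocyte marker scaling (0.54 and 0.97). Of all genes 45.8% and 46.2% were higher in these comparisons with library total, and 44.9% and 60.2% with hepatocyte marker scaling. Got2, the mitochondrial partner of Got1, fell on CD-HFD with TMM in WT (-0.54, 0.00478), Ripk3-/- (-0.72, 0.00128) and Mlkl-/- livers (-0.76, 0.00208), while with hepatocyte marker scaling its values were 0.07, 0.07 and 0.11 and none passed, nor did any with library total. The rise of Glul on CD-LFD was called under all 4 scalings in the 3 genotypes. Slc25a2, a counterpart of Slc25a15, did not pass the count filter, with no group mean above 0.727 ± 0.311 CPM (Mlkl-/- livers on CD-LFD).

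Among 15 other genes of amino acid breakdown, 14 of 15 fell in WT on CD-HFD and 14 of 15 on CD-LFD, with medians of -1.16 and -0.70, while 24.1% and 14.0% of all genes fell. With hepatocyte marker scaling 11 and 8 of 15 fell, against 5.30% and 4.53% of all genes. On CD-HFD the knockouts had 10 (Ripk3-/-) and 8 (Mlkl-/-) of 15 lower with TMM, where 21.7% and 20.3% of all genes fell. With hepatocyte marker scaling they had 0 and 1 of 15 lower, near the 2.48% and 2.36% of all genes. Gldc, of the glycine cleavage system, fell most on CD-HFD (log2 change -2.07 ± 0.29 SE, adjusted p = 1.21e-07), from 177 ± 102 to 42.3 ± 13.9 CPM. In Mlkl-/- livers on CD-LFD 3 of 15 fell and 1 of 15 rose, with a median of 0.05 (18.3% of all genes fell and 19.7% rose), and Gldc was among those that fell (-1.29, adjusted p = 0.00195). For the interaction of Mlkl-/- and CD-LFD 6 of 15 were called above 0 with TMM, against 4.37% of all genes, and 6, 7 and 9 with library total, RLE and hepatocyte marker scaling, against 2.60%, 4.46% and 3.21% of all genes. Among tested genes of amino acid, ammonia and urea transport, 4 of 9 fell and 1 rose in WT on CD-HFD, where 24.1% of all genes fell and 23.5% rose. The riser was Rhbg, an ammonia transporter, from 1.30 ± 0.761 to 5.14 ± 1.03 CPM (log2 change 2.08 ± 0.29 SE, adjusted p = 1.29e-07), and it rose in all 6 comparisons of a choline-deficient diet with control under all 4 scalings. The amino acid transporter Slc38a4 fell most (log2 change -1.22 ± 0.23 SE, adjusted p = 2.79e-05).

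Among genes of transamination and of glutamate and asparagine metabolism, 3 of 6 fell in WT on CD-HFD, led by Oat, ornithine aminotransferase (log2 change -1.28 ± 0.21 SE, adjusted p = 3.93e-06). Of 5 genes for other uses of arginine and ornithine 2 fell and 1 rose, and Gamt, of creatine synthesis, fell most (log2 change -0.58 ± 0.21 SE, adjusted p = 0.022). Among known regulators of urea cycle genes 7 of 9 fell, led by the glucagon receptor gene Gcgr (log2 change -1.03 ± 0.20 SE, adjusted p = 6.12e-05), and 1 rose, the transcription factor gene Cebpb (log2 change 0.51 ± 0.19 SE, adjusted p = 0.0235). Of 7 genes that respond to fasting and feeding 4 fell and 1 rose on CD-HFD in WT. Fgf21, a fasting and stress hormone, went from 1.28 ± 1.07 to 49.9 ± 22.8 CPM (log2 change 5.27 ± 0.51 SE, adjusted p = 3.43e-11), and the lipogenic enzyme gene Fasn from 1468 ± 499 to 194 ± 50.6 (log2 change -2.92 ± 0.34 SE, adjusted p = 2.16e-09). These counts are with TMM, and the all-gene shares of 24.1% lower and 23.5% higher apply to each. The counts of 2 of 5 lower, 1 of 5 higher and 1 of 7 higher lie near those shares. With library total scaling 1 of 9 regulators fell and with hepatocyte markers none did, where 6.86% and 5.30% of all genes fell. Under those scalings the Gamt change was -0.11 and -0.16 and no longer called, and Gcgr was -0.56 and -0.65, called with the former only. Oat, Slc38a4, Gldc, Cebpb, Fgf21 and Fasn kept both call and direction in WT on CD-HFD under the 4 scalings.

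The genes whose 9 group means were most like those of a member were found by the root mean square distance between centred log2 means, among 11144 genes. Fgf1 was nearest to Asl (distance 0.127). Slc25a13, the mitochondrial aspartate and glutamate carrier that supplies aspartate to Ass1, was the second nearest to Gls2 (0.115). Sds, serine dehydratase, was nearest to Got1 (0.146), and Aass, of lysine breakdown, to Ass1 (0.104). Nags was nearest to Cpn1 (0.0857) and Serpinc1 (0.0969), both of which encode secreted plasma proteins and the second of which is among the 16 hepatocyte markers, and Otc to Serpinf1 (0.0609). For Cps1 the nearest gene, Epas1, was at 0.191. These distances are descriptions over the same 44 libraries and share their scaling.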

How the data were processed

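RNA sequencing of total RNA from liver, with a strand-specific library kit per the labels' protocols, was deposited as 1 table of raw counts per Ensembl gene for 44 libraries. The submitters' processing notes name FastQC, STAR, HTSeq, edgeR, limma, GRCm39 and mm39, without roles or versions. Groups were taken from the labels. Symbols were matched for 34373 of 35249 gene IDs, and the 876 others held 0.0838% of counts. Genes passed with edgeR's filterByExpr (minimum count 10, 9 groups), which kept 14862 genes with 99.8% of counts. R 4.3.3 was used. After TMM scaling, the deposited counts of all 44 libraries entered 1 quasi-likelihood fit in edgeR 4.0.16 with a mean per group. In 19 comparisons, p-values were adjusted by Benjamini-Hochberg over all 14862 genes, with a threshold of 0.05. SE was the log2 change divided by the root of F, and 95% intervals are unadjusted.

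Data were simulated with the means of WT control in all groups, the real library sizes and 200 of 14862 genes changed. The fit for WT CD-HFD against control then recovered 9.0% of genes changed by 1.5-fold, 55.0% by 2-fold and 84.5% by 4-fold. The depth per library was 2476268 to 88204703 counts, and no 2 libraries of 1 group agreed within sampling noise. Alternatives were RLE scaling, library total, scaling by the mean log2 level of 16 hepatocyte markers, no count filter, the replicate number as a block, the Arntl to Dbp ratio as a covariate, WT control without replicates 5 and 6, the compared groups alone, DESeq2 1.42.0 and each library left out. Limiting WT to 1 side of the clock ratio was added after seeing the data. The members and gene lists were chosen with earlier results of these data known. 1 further gene of the list and 2 isozymes are not reported here, and all counts are without them. The other members and isozymes are all named. Of each other pathway list, the called gene with the largest rise and that with the largest fall on CD-HFD in WT are named (mean log2 CPM at least 1), and so are near genes by distance. Lists covered isozymes, transport, transamination, amino acid breakdown, arginine users, regulators, feeding, clock genes and markers of hepatocytes (2 zones), macrophages, stellate cells, cholangiocytes, endothelium and lymphocytes. Replicate numbers did not pair samples: the median correlation of deviations was -0.0114 over 146 pairs with the same number. No gene coordinates are given, since the annotation used here is of another build (GRCm38) than that named, and the promoters are those of RefSeq GRCm38.p6.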

Additional observations from a re-analysis of the deposited data

Results flagged for a closer look

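Of 56 combinations of gene and group with 4 to 6 libraries, 3 had a library far from the rest of its group, and chance marks about 1 in 20. In Mlkl-/- livers on control diet, replicate 5 was lowest for Cps1, at 2959 CPM against 5013 to 6741 in the other 5. The same library was lowest for Got1, at 261 CPM against 406 to 507. In Ripk3-/- livers on CD-HFD, replicate 2 was highest for Nags, at 55.0 CPM against 48.3 to 48.9 in the other 3.

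Among 32 interactions tested (8 genes, 2 knockouts, 2 diets), 2 differed between genotypes by edgeR's test of the difference itself, both for Mlkl-/- against WT in the change on CD-LFD. The log2 differences were 1.85 for Asl and 1.33 for Gls2. All 6 WT CD-LFD and none of the Mlkl-/- libraries have a high clock ratio, and with that ratio as a covariate the values were 1.58 for Asl and 1.30 for Gls2, still called.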

How the results depend on the processing

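Scaling mattered most. With TMM 3496 of 14862 genes were higher and 3586 lower in WT on CD-HFD, with library total 6813 and 1020, and with hepatocyte markers 6673 and 788. Of 1360 changes of the 8 genes recomputed under other settings than leaving out a library, 1248 stayed on the same side of the threshold (89 of these changed sign and were called in neither fit), 61 lost and 43 gained a call, and 8 changed sign while called in 1 fit, all 8 with hepatocyte marker scaling. On CD-HFD 7 of these became 0.0881 (Ass1) and 0.0894 (Asl) in Ripk3-/-, and 0.108 (Otc), 0.260 (Ass1), 0.472 (Slc25a15), 0.491 (Gls2) and 0.699 (Got1) in Mlkl-/- livers. The eighth, the difference of Otc between Ripk3-/- and WT on control, became -0.409. The cause was not tested.

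The number of the 8 genes called moved by over 1.5 times as follows, with the share of all genes called in the same fit in brackets. With RLE it was 1 in WT between the choline-deficient diets (20.8%) and 2 between Mlkl-/- and WT on control (27.6%). With library total it was 1 in WT between the choline-deficient diets (23.9%). In Ripk3-/- it was 3 on CD-HFD (51.2%), 1 on CD-LFD (29.8%) and 0 between them (10.3%). In Mlkl-/- it was 1 on CD-HFD (47.7%) and 2 on CD-LFD (38%). Still with library total, it was 2 between Mlkl-/- and WT on control (27.4%) and 0 between Ripk3-/- and WT on CD-LFD (0.962%). For Mlkl-/- by CD-HFD it was 2 (3.79%). With hepatocyte markers it was 5 in WT on CD-HFD (50.2%) and 0 in WT between the choline-deficient diets (22.1%). In Ripk3-/- it was 2 on CD-HFD (62.7%), 0 on CD-LFD (38.2%) and 0 between them (6.39%). In Mlkl-/- it was 3 on CD-LFD (39.1%) and 0 between the choline-deficient diets (34.9%). Still with hepatocyte markers, it was 2 for Ripk3-/- (33.8%) and 4 for Mlkl-/- (42.2%) against WT on control. Between Ripk3-/- and WT on CD-LFD it was 0 (0.39%). For Mlkl-/- it was 4 by CD-HFD (3.47%) and 4 by CD-LFD (5.16%). With no count filter it was 1 in WT (7.8%) and 0 in Ripk3-/- (2.68%) between the choline-deficient diets. Against WT it was then 0 for Mlkl-/- on control (9.25%), 2 for Ripk3-/- on CD-LFD (0.448%) and 1 for Ripk3-/- on CD-HFD (0.193%). With the replicate block it was 0 between Mlkl-/- and WT on control (27.8%), and no other count moved so far. The numbers do not pair samples. With the clock ratio as a covariate it was 1 in WT between the choline-deficient diets (18.2%) and 1 for Mlkl-/- by CD-HFD (4.25%). Against WT on CD-LFD it was then 0 for Ripk3-/- (0.074%) and 0 for Mlkl-/- (0.121%). Without WT control replicates 5 and 6 it was 1 for Mlkl-/- by CD-HFD (6.63%) and 4 by CD-LFD (10.6%). With only the compared groups it was 4 in WT on CD-LFD (15.3%), 1 in WT between the choline-deficient diets (23.6%) and 2 in Mlkl-/- on CD-LFD (39.5%). It was then 0 between Mlkl-/- and WT on control (11.6%) and 1 between Ripk3-/- and WT on CD-HFD (1.7%). With DESeq2 it was 2 between Mlkl-/- and WT on control (29.9%) and 2 for Mlkl-/- by CD-HFD (7.06%). Between Ripk3-/- and WT it was then 2 on CD-LFD (2.01%) and 2 on CD-HFD (0.848%). With WT of 1 clock side it was 1 between Ripk3-/- and WT on CD-HFD (0.579%) and 1 for Mlkl-/- by CD-HFD (4.84%).

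Without 1 library the counts ranged from 8 to 8 (WT, CD-HFD), 5 to 7 (WT, CD-LFD), 1 to 2 (WT, CD-HFD against CD-LFD), 3 to 6, 0 to 5 and 0 to 1 in Ripk3-/-, and 2 to 4, 1 to 3 and 2 to 3 in Mlkl-/- livers for the same comparisons. On control they ranged from 0 to 0 (Ripk3-/-) and 0 to 2 (Mlkl-/-) against WT, on CD-LFD from 0 to 1 and 3 to 4, and on CD-HFD from 0 to 0 in both. For the interactions they ranged from 0 to 2 (Mlkl-/- by CD-HFD), 2 to 4 (Mlkl-/- by CD-LFD) and 0 to 0 (Ripk3-/- by either diet). Over all genes the diet calls ranged from 6508 to 7578, 3206 to 5314 and 2504 to 3242 in WT. In Ripk3-/- they ranged from 5853 to 6985, 1360 to 4108 and 500 to 1321. In Mlkl-/- they ranged from 5262 to 6818, 4300 to 5643 and 1926 to 3146. Against WT they ranged from 394 to 1026 (Ripk3-/-) and 3125 to 4417 (Mlkl-/-) on control, 21 to 169 and 178 to 439 on CD-LFD, and 15 to 50 and 0 to 1 on CD-HFD. For the interactions the calls over all genes ranged from 181 to 1266 (Mlkl-/- by CD-HFD), 831 to 1866 (Mlkl-/- by CD-LFD), 17 to 167 (Ripk3-/- by CD-HFD) and 0 to 26 (Ripk3-/- by CD-LFD). Of 1888 changes of the 8 genes in the fits without 1 library 1801 stayed on the same side of the threshold (72 of these changed sign and were called in neither fit), 66 lost and 21 gained a call, and no called value changed sign. WT of 1 clock side was not fitted for WT CD-HFD against CD-LFD, where 1 CD-HFD library is on the high side and 0 CD-LFD libraries on the low side. It was not fitted for the knockouts against WT on CD-LFD either. There all 6 WT libraries are on the high side and all knockout libraries on the low side. In the simulation, with 200 of 14862 genes changed, most 1.5-fold changes were missed. In the real WT comparison of CD-HFD with control 47.7% of genes were called, so recovery there can differ.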

Other observations

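Fgf21, a hormone released by liver under fasting and nutrient stress, was the gene of the feeding list with the largest rise in WT livers on CD-HFD, and on CD-LFD its level was lower in both knockouts than in WT. It was 95.3 ± 53.9 CPM in WT (SD, n = 6), 11.8 ± 1.80 in Ripk3-/- (n = 3) and 13.2 ± 1.94 in Mlkl-/- livers (n = 4). By edgeR's quasi-likelihood test it was lower than in WT in both Ripk3-/- (log2 difference -3.01 ± 0.52 SE, adjusted p = 0.000732) and Mlkl-/- livers (log2 difference -2.86 ± 0.45 SE, adjusted p = 0.000119). On control diet it was 1.28 ± 1.07, 1.77 ± 2.22 and 0.594 ± 0.483 CPM in the same order (n = 6 each). On CD-HFD it was 49.9 ± 22.8, 9.71 ± 1.92 and 11.2 ± 5.33 CPM (n = 6, 4 and 3), lower than in WT in Ripk3-/- livers (log2 difference -2.36 ± 0.44 SE, adjusted p = 0.0058), while Mlkl-/- livers did not pass (log2 difference -2.16 ± 0.50 SE, adjusted p = 0.294). The difference in the change on CD-LFD against WT did not pass for Ripk3-/- (-3.38, adjusted p = 0.125) or Mlkl-/- livers (-1.68, 0.278). The 2 knockout comparisons share the WT livers, and the clock ratio separates WT from both knockouts on CD-LFD.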
